A study of Mus musculus with 2 samples.

Results

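The miR-130/miR-301 family is represented here by Mir130a, Mir301, Mir130b and Mir301b, 4 of the 2202 microRNA genes counted in mouse left cerebral cortex. The genes were chosen by name, after Mir301 had shown the widest gap between the libraries, to ask whether its seed relatives share that gap. Mir301b, the closest sequence relative of Mir301, also leaned to replicate 1, but on few reads: 34 in replicate 1 and 1 in replicate 2. It fell short of the 10 reads in each library required for detection. Mir130b, 257 bases from Mir301b, was at nearly the same level in both libraries.

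The tissue came from males labelled 5xFAD/CAST, adults between 8 and 10 months of age, and RNA below 30 bases was sequenced. 5xFAD mice carry human amyloid precursor protein and presenilin transgenes under the neuronal Thy1 promoter and form amyloid deposits, and CAST is a wild-derived inbred strain. Whether these animals carried the transgenes is not given in the labels. There is 1 group with 2 libraries, labelled as biological replicates 1 and 2, and no control group was analysed here. The 2 tissue samples have 1 donor identifier in common, and their spread may therefore be technical.

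MicroRNAs guide Argonaute proteins to messenger RNAs, chiefly by pairing through their seed, bases 2 to 8 of the mature strand. MicroRNAs with the same seed form a family and can share targets. The miR-130/miR-301 family is best known from blood vessels and fat cells, where members repress Pparg, a nuclear receptor that drives adipocyte formation and restrains vascular smooth muscle growth. Each gene makes a hairpin with a 5p and a 3p arm, and in this family the 3p arm carries the shared seed. The deposited counts are per hairpin gene and do not separate the arms.

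The 3p strands are shown because they define the family and separate its members. They are RefSeq sequences on GRCm38.p6, written 5′ to 3′, with the seed in capitals. For Mir301b the whole hairpin is given, with the letters equal to the family seed in capitals.
miR-130a-3p (Mir130a): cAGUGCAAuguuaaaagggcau
miR-130b-3p (Mir130b): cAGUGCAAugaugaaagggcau
miR-301a-3p (Mir301): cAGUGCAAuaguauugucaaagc
Mir301b hairpin: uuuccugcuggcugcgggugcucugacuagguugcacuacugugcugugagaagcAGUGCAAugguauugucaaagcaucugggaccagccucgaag
Beyond the seed, the letters fall into pairs. The strands miR-130a-3p and miR-130b-3p differ by 2 single-base edits. By contrast, miR-301a-3p is 10 edits from miR-130a-3p and 9 from miR-130b-3p. Within the Mir301b hairpin, miR-301a-3p has a match with 1 edit, whereas miR-130a-3p and miR-130b-3p each need 7.

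The hairpins of Mir301 and Mir301b are shown next because they hold the longest run common to any pair of members, 16 bases, in capitals.
Mir301 hairpin: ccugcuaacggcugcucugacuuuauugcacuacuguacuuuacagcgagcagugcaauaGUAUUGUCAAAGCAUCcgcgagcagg
Mir301b hairpin: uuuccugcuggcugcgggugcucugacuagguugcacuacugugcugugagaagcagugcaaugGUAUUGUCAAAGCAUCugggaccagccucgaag
Of 1005 hairpins in the RefSeq table, these 2 were the only ones that held this run (0.199%). The 12-base run shared by Mir130a and Mir130b was in 4 hairpins (0.398%).

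The 5p arms are shown because reads from them enter the same counts, and in these the seeds, in capitals, are shared by Mir301 and Mir301b alone.
miR-301a-5p: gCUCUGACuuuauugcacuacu
miR-301b-5p: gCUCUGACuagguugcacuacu
miR-130a-5p: gCUCUUUUcacauugugcuacu
miR-130b-5p: aCUCUUUCccuguugcacuacu
The pair miR-301a-5p and miR-301b-5p shared bases 2 to 8 and differed by 3 edits over 22 bases. The 5p arms of Mir130a and Mir130b differed by 7 edits. No stretch of 20 bases of any of the 4 hairpins was found in another of the hairpins searched. The rest of the genome was not searched.

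The 4 genes lie at 3 places in mm10 (GENCODE M21). Mir301 is on the plus strand of chromosome 11 (87113004 to 87113089), within an intron of Ska2, a spindle and kinetochore gene of dividing cells. Mir130b (17124061 to 17124142) and Mir301b (17124400 to 17124496) are neighbours on the minus strand of chromosome 16, both in an intron of the protein-coding gene 2610318N02Rik. Mir130a is on chromosome 2, 84741115 to 84741178 on the minus strand, and overlaps no other annotated gene on either strand. No other microRNA gene lies within 10 kb of a member on its strand.

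Of all reads, 4929428 of 16403925 in replicate 1 (30.1%) and 4441328 of 16991914 in replicate 2 (26.1%) fell on microRNA genes in the sense direction. Levels are given in counts per 1000000 of these reads (CPM), and 1 read is 0.203 CPM in replicate 1 and 0.225 CPM in replicate 2. Intervals are exact 95% intervals that cover counting error only. Multi-mapping reads, 38.5% of all reads in replicate 1 and 33.0% in replicate 2, are kept apart from the gene counts, and unmapped reads made up 25.6% and 34.3%. In bulk tissue, fewer cells of a type and less RNA per cell cannot be told apart. Of the 7 neuronal marker genes chosen, all were detected, meaning at least 10 reads in each library.

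Mir130a, expressed in endothelial and blood-forming cells among others, was the leading member. It had 6928 reads in replicate 1, or 1405 CPM (interval 1373 to 1439), and 3383 reads in replicate 2, or 762 CPM (interval 736 to 788). The mean level was 1084 ± 455 CPM (SD, n = 2). It ranked 78th among all microRNA genes in replicate 1 and 104th in replicate 2. Replicate 1 was higher by 1.85-fold (interval 1.77 to 1.92).

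Mir301, which makes miR-301a, had 3044 reads in replicate 1, or 618 CPM (interval 596 to 640), and 104 reads in replicate 2, or 23.4 CPM (interval 19.1 to 28.4). Its rank was 113 in replicate 1 and 275 in replicate 2. The mean of 320 ± 420 CPM (SD, n = 2) had an SD above the mean itself, so no single level describes this gene in the 2 libraries.

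Mir130b had 557 reads in replicate 1, or 113 CPM (interval 104 to 123), and 443 reads in replicate 2, or 99.7 CPM (interval 90.7 to 109). These intervals overlap, and the ratio of 1.13 had an interval of 0.998 to 1.29. Its mean was 106 ± 9.37 CPM (SD, n = 2), the smallest relative spread of the 4 genes, and it ranked 200th and 204th.

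Mir301b was the lowest member. Its 34 reads in replicate 1 make 6.90 CPM (interval 4.78 to 9.64), and its 1 read in replicate 2 makes 0.225 CPM (interval 0.00570 to 1.25). The intervals do not overlap. The level in replicate 2 is below that of 3 reads, 0.675 CPM, the limit that a count of 0 allows. Mir301b is the only member of the 4 that was not detected by the rule of 10 reads in each library.

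**Figure D1:**
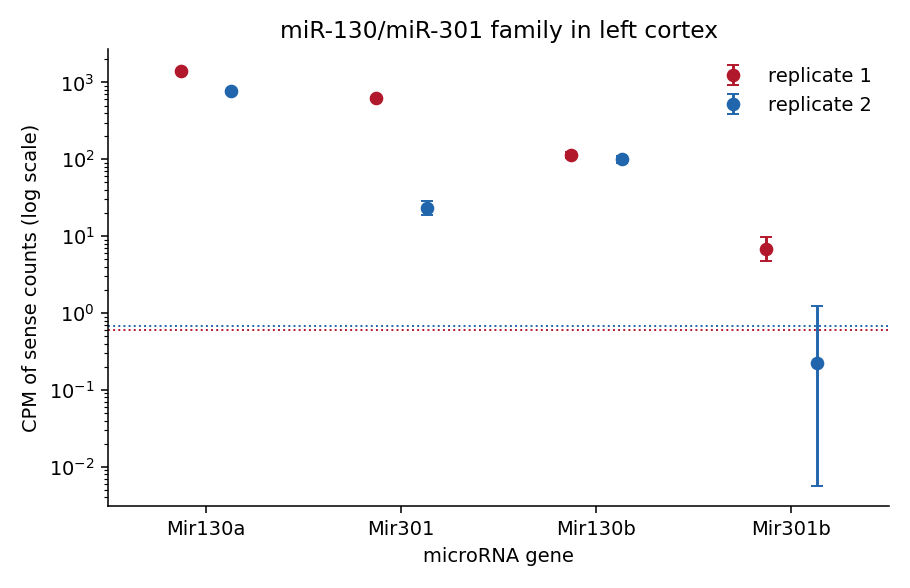
CPM of the 4 family genes (log axis) in replicate 1 (red) and replicate 2 (blue), with exact 95% counting intervals as bars; dotted lines mark the level of 3 reads. Mir130b lies at 113 and 99.7 CPM, while Mir301 lies at 618 and 23.4 CPM and Mir301b at 6.90 and 0.225 CPM.

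The order of the genes changed between the libraries. In replicate 1 it ran Mir130a, Mir301, Mir130b and Mir301b, and in replicate 2 Mir130b stood above Mir301. For each read of Mir130b there were 5.46 reads of Mir301 in replicate 1 (interval 4.99 to 5.99) and 0.235 in replicate 2 (interval 0.188 to 0.291). Mir130a stood above Mir301 in both libraries. For each read of Mir301 there were 2.28 reads of Mir130a in replicate 1 (interval 2.18 to 2.38) and 32.5 in replicate 2 (interval 26.8 to 39.9). By mean level, the difference of Mir301 and Mir130b is within their spread, whereas that of Mir130b and Mir301b is beyond it. The listed mature 3p strands were 22 or 23 bases long, and counts were not scaled by length.

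The share of the family's reads shows the same shift without any scaling between libraries. Mir130a took 65.6% of 10563 family reads in replicate 1 (interval 64.7 to 66.5%) and 86.1% of 3931 in replicate 2 (interval 84.9 to 87.1%). Mir301 took 28.8% in replicate 1 (interval 28.0 to 29.7%) and 2.65% in replicate 2 (interval 2.17 to 3.20%). Mir130b took 5.27% in replicate 1 and 11.3% in replicate 2, and Mir301b took 0.322% and 0.0254%. Together the 4 genes made up 0.214% of the microRNA reads in replicate 1 and 0.0885% in replicate 2. Without Mir301 these shares were 0.153% and 0.0862%.

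**Figure D2:**
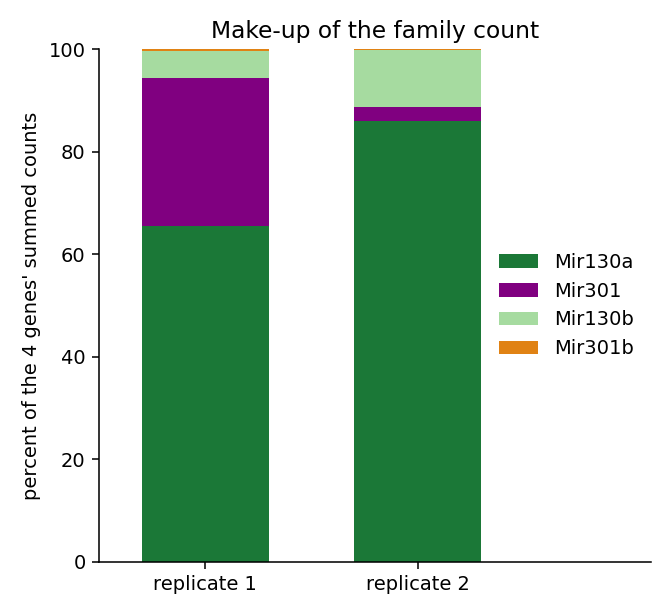
Percent of the summed counts of the 4 genes taken by each, in replicate 1 (left bar, 10563 reads) and replicate 2 (right bar, 3931 reads). Mir301 fills 28.8% of the left bar and 2.65% of the right bar, and Mir130a fills 65.6% and 86.1%.

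The ratio of replicate 1 to replicate 2 chose Mir301, so for all members it is a description of these 2 libraries, with no test. On the log2 scale it was 4.72 for Mir301 (interval 4.44 to 5.02), the widest gap among the 417 detected genes. The next widest, at Mir31, was -3.75. For Mir301b the log2 ratio was 4.94, with an interval of 2.36 to 10.3 that rests on the single read in replicate 2. The other log2 ratios were 0.88 for Mir130a (interval 0.82 to 0.94) and 0.18 for Mir130b (interval -0.0027 to 0.36).

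Among all detected genes, 21 of 417 (5.04%) were at least 2-fold higher in replicate 1 and 28 (6.71%) were at least 2-fold higher in replicate 2. Thus 49 (11.8%) were at least 2-fold apart in either direction. Of the 3 detected members, 1 (Mir301) was at least 2-fold apart. Scaled to all reads of a library in place of gene reads, 2 of the 3 were, Mir301 and Mir130a, and the split of all detected genes turned to 39 higher and 20 lower in replicate 1 (59 in all). All 3, Mir301 by choice, were higher in replicate 1, as were 53.5% of detected genes. The median detected gene was 1.29-fold apart, and 90% of them were less than 2.15-fold apart. By size of gap, Mir130a ranked 68th and Mir130b 293rd of the 417. Since Mir301 was chosen for its gap, only Mir130a and Mir130b can be set against these shares. Neither was 2-fold apart on gene reads, and the interval of Mir130b (0.998 to 1.29) holds a ratio of 1.

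Low counts scatter more, which sets the background for Mir301b. Of 209 genes with 10 to 100 reads in both libraries together, 32 (15.3%) were at least 2-fold higher in replicate 1. Of the 126 genes with 20 to 100 such reads, 2 had at least as large a share of them in replicate 1 as Mir301b. These were Mir301b itself and Gm47295, with 32 reads and 0. Gm47295 was named after its values were seen. Genes below 20 such reads were left out of this second count.

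**Figure D3:**
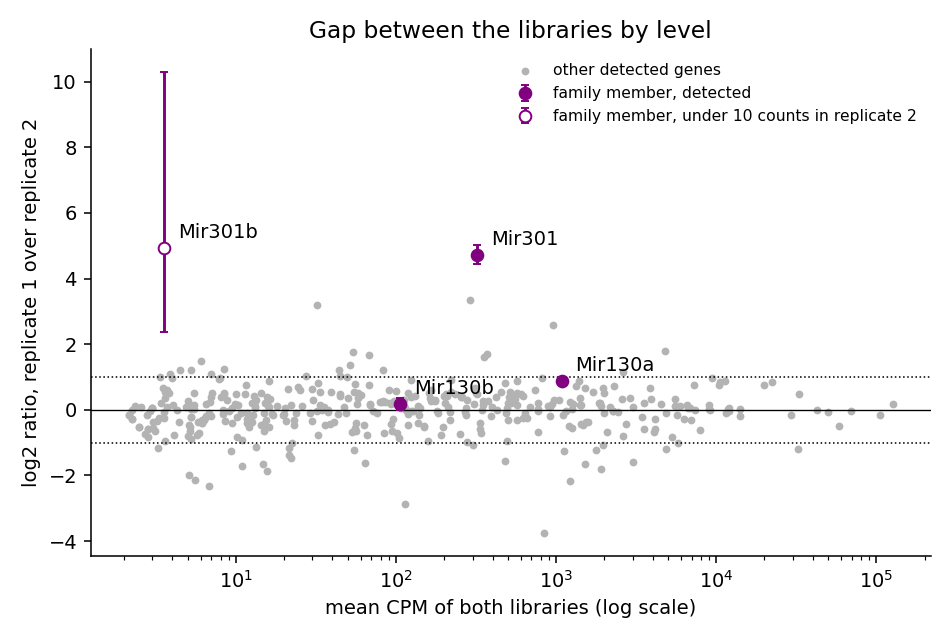
Log2 ratio of replicate 1 over replicate 2 against mean CPM (log axis) for the 417 detected genes (grey) and the family (purple, with 95% counting intervals; open symbol for Mir301b, which had 1 read in replicate 2). Dotted lines mark 2-fold. Mir301 (4.72) lies above the grey points, and Mir130a (0.88) and Mir130b (0.18) lie within the 2-fold lines. Mir301b is drawn at 4.94, but the grey genes have at least 10 reads in each library. Mir301b fails that filter, which removes genes as lopsided at so few reads, so its height cannot be compared with theirs.

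Set against each other, the members' gaps do not depend on scaling. The ratio of Mir301 was 23.3 times that of Mir130b (exact conditional interval 18.4 to 29.6). That of Mir301b was 27.0 times that of Mir130b (interval 4.49 to 1102), although both lie in introns of the same gene. Mir301b and Mir301 differed by a factor of 1.16, with an interval of 0.191 to 47.7, wide enough to hold equal gaps as well as large differences. For each read of Mir301b there were 89.5 reads of Mir301 in replicate 1 (interval 63.9 to 130) and 104 in replicate 2 (interval 18.3 to 4147). Whether any reads counted at Mir301b came from Mir301 was not tested. The ratio of Mir130a was 1.63 times that of Mir130b (interval 1.42 to 1.86).

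Within the chromosome 16 pair there were 16.4 reads of Mir130b for each read of Mir301b in replicate 1 (interval 11.6 to 23.9). In replicate 2 there were 443 for the single read, with an interval of 79.1 to 17537. Mir301 and Mir301b, whose hairpins hold the longest common run, lie on different chromosomes and had the wide gaps. That of Mir301b rests on 1 read in replicate 2. The neighbours Mir130b and Mir301b did not share a wide gap. The part of sequence or of locus in the gaps was not tested.

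Another 4 mouse genes in the tables carry the same seed on a mature strand in RefSeq, and are shown to complete the seed family.
miR-130c: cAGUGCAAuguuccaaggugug
miR-721: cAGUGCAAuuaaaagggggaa
miR-6341: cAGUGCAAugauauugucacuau
miR-6389: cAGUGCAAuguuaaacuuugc
Mir130c, Mir721, Mir6341 and Mir6389 were at 0 reads in both libraries, which allows a level of 0.609 CPM in replicate 1 and of 0.675 CPM in replicate 2. Of 1738 mature sequences in the table, 7 (0.403%) had this seed. Mir721 lies in an intron of Cux1.

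The miR-148/miR-152 family has an overlapping seed. It is shown because the first 7 bases of the miR-130/miR-301 strands, in capitals, occur in it from base 2.
miR-148a-3p: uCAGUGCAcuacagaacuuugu
miR-148b-3p: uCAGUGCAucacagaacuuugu
miR-152-3p: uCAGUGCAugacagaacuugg
All 3 genes were detected and lay below Mir130b in level. Mir148a stood at 83.4 CPM in replicate 1 and 24.8 CPM in replicate 2, Mir148b at 66.1 and 33.1 CPM, and Mir152 at 50.5 and 38.1 CPM. Their log2 ratios were 1.75, 0.999 and 0.41, so Mir148b fell just short of 2-fold. All 3 were higher in replicate 1, and 1, Mir148a, was at least 2-fold apart, against 53.5% and 11.8% of all detected genes. Their median log2 ratio was 0.999, and that of all detected genes was 0.05. The median of the 3 detected family members, 0.88, is the value of Mir130a, since Mir301 was chosen for its gap. Sets of 3 genes are too short to tell from all detected genes.

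The genes most like Mir301 were looked for over the 2 libraries, which share depth and processing with it. By log2 ratio the nearest 3 detected genes were Mir451a (3.34), Mir144 (3.20) and Mir153 (2.60). Mir301 was chosen as the widest gap, so these can only be the genes next below it, ranked 2, 3 and 4 toward replicate 1. The distance in level draws on the same values, so neither measure is a separate sign of likeness. By distance in log2 CPM over both libraries they were Mir451a (1.18), Mir344b (2.63) and Mir200b (2.65). Mir451a, the principal erythroid microRNA, was first by both measures, at 529 CPM in replicate 1 and 52.2 CPM in replicate 2.

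Red blood cell markers moved both ways. Of the 3 markers, all detected, Mir451a and Mir144 were higher in replicate 1 (Mir144 at 57.8 against 6.30 CPM). These 2 genes are close neighbours on the plus strand of chromosome 11 and are not separate loci. The marker from another locus, Mir486 on chromosome 8, was lower in replicate 1 (15.0 against 29.9 CPM). The summed level of the 3 markers was 602 CPM in replicate 1 and 88.5 CPM in replicate 2, and none was at 0. The part of red blood cells in the gap of Mir301 was not tested.

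MicroRNAs that work on vessels sets beside this family were examined as a list of 10 genes, all detected. Of these, 0 were at least 2-fold higher in replicate 1 and 1 was at least 2-fold lower, Mir21a, an injury-responsive microRNA (1518 against 4526 CPM). Among all detected genes, 5.04% were at least 2-fold higher in replicate 1 and 6.71% at least 2-fold lower. The list of 10 genes is too short to tell its shares from these. The member highest in replicate 1 relative to replicate 2 was Mir204, at 1084 against 553 CPM (0.97 on the log2 scale). The endothelial Mir126a had a log2 ratio of -0.17 and the smooth muscle Mir143 one of 0.07. Mir322, at 0.47, and Mir503, at -0.10, form a cluster known in vascular cells. Of the 10 genes, 5 were higher in replicate 1 and 5 lower, and the median log2 ratio was 0.03. Of the 3 vessel markers (Mir126a, Mir143 and Mir145a), whose summed level was 20418 CPM in replicate 1 and 21812 CPM in replicate 2, 0 were at least 2-fold apart and none was at 0.

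Markers of other brain cells moved both ways. Among all detected genes, 53.5% were higher in replicate 1, 5.04% at least 2-fold higher there and 6.71% at least 2-fold lower there. The marker lists are too short to tell their shares from these. Of 7 neuronal markers, 2 were at least 2-fold higher in replicate 1, Mir153 (log2 ratio 2.60) and Mir218-1 (1.22), and 1 was lower, the activity-dependent Mir132 (-1.18). The other members were Mir128-1 at 0.86, Mir137 at 0.96, Mir138-1 at 0.08 and Mir212 at -0.31, so 5 of the 7 were higher in replicate 1. Their summed level was 50900 CPM in replicate 1 and 62423 CPM in replicate 2, and without Mir132 it was 31218 CPM and 17725 CPM. Of 6 markers of choroid plexus and ependyma, Mir1298 was higher (1.71), Mir34c was lower (-1.55) and the abundant Mir204 had a log2 ratio of 0.97. Mir31 (-3.75) was lower among 4 astroglial markers, of which Mir23b (0.75), Mir29a (0.02) and Mir29c (-0.38) were under 2-fold. Mir219a-2 (-1.23) was lower of 2 oligodendrocyte markers, beside Mir338 (-0.42). Of 5 markers of microglia and leukocytes, led by Mir150 (0.30), Mir146 (-0.67) and Mir142 (-0.14), 0 were 2-fold apart. No marker was at 0 in both libraries. The part of these cells in the members' gaps was not tested. Mir128-1, Mir138-1, Mir218-1 and Mir219a-2 are each made from several loci, and their counts lack multi-mapping reads. At the other loci the log2 ratio was 0.71 for Mir128-2 and 0.37 for Mir138-2, the same direction. It was -0.48 for Mir218-2 (126 against 175 CPM), opposite to Mir218-1. Mir219a-1, at 0.28 on 27 and 20 reads, was opposite to Mir219a-2.

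**Figure D4:**
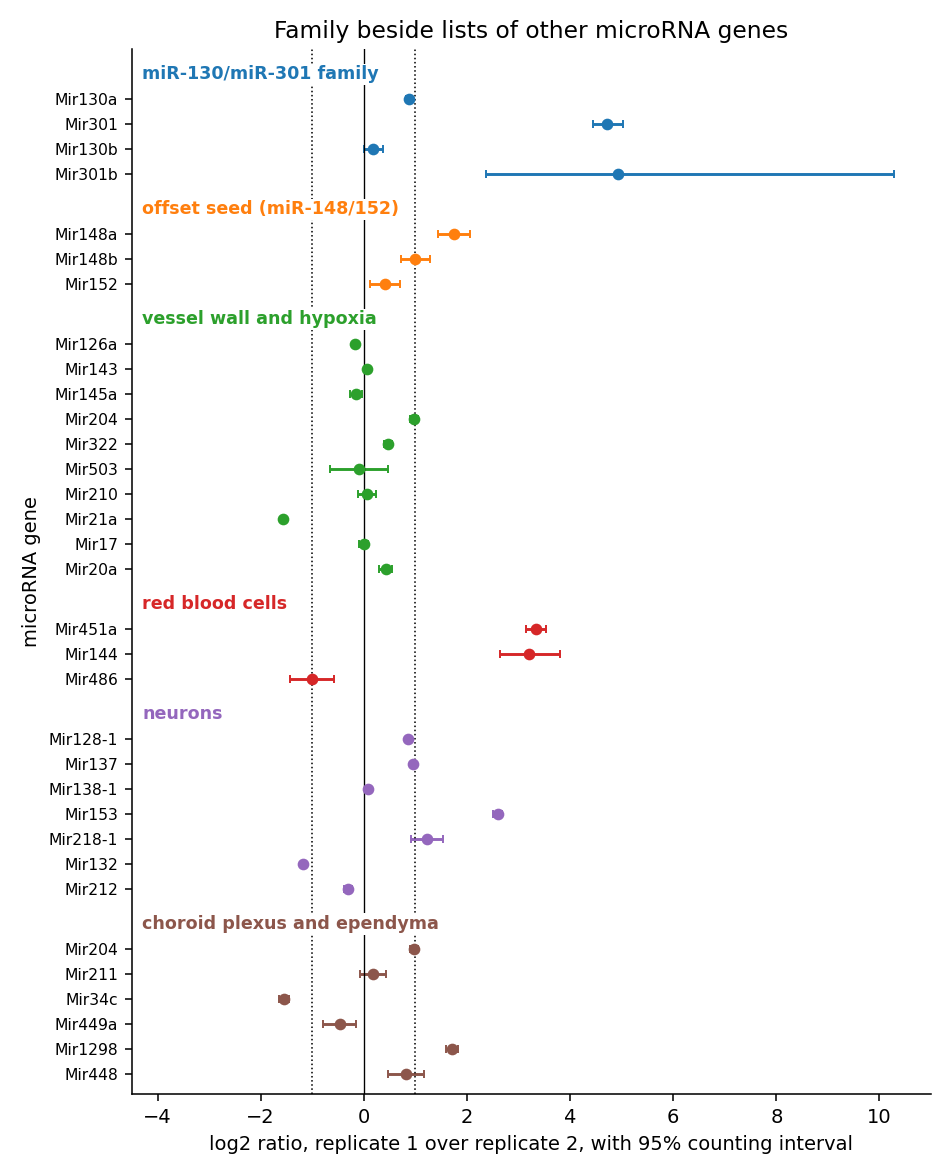
Log2 ratio of replicate 1 over replicate 2 (horizontal axis) of the family and of genes in 5 lists, with exact 95% counting intervals; dotted lines mark 2-fold. Mir301 and Mir301b lie at 4.72 and 4.94, to the right of all other genes drawn, and the nearest are Mir451a at 3.34 and Mir144 at 3.20.

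Base composition and strand were examined last. The mature 3p strands had 40.9% G and C in miR-130a, 39.1% in miR-301a and 45.5% in miR-130b. Across 374 detected genes with a mature sequence in the table, Spearman's rho between the log2 ratio and the mean G and C content was -0.10, given as a description across genes that share the same libraries. Counts on the opposite strand came to 1 read in all at the 4 genes, at Mir130a in replicate 2.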

How the data were processed

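MicroRNA-seq of 2 libraries of 1 group was analysed. The authors deposited, per library, raw read counts for 2202 microRNA genes in 3 columns (without regard to strand, sense and opposite strand) with 4 lines of unassigned totals. Build mm10 and GENCODE M21 are given per the file headers of the deposited notes; the names of aligner and counter were not given in the sources used here. Unassigned reads, 69.9% of replicate 1 and 73.9% of replicate 2, stayed out of library sizes.

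Sense counts were scaled to CPM of gene reads. Ratios of replicate 1 to replicate 2 have exact binomial intervals, levels exact Poisson intervals, family shares Clopper-Pearson intervals and ratios of ratios exact conditional ones, all at 95% and for counting error only. No test was run, because there is 1 group and Mir301 was picked for this contrast. The steps were tested on simulated data. TMM factors came from edgeR 4.0.16 and size factors from DESeq2 1.42.0; other steps used Python 3.11.15 and SciPy 1.17.1. All 4 members were matched by symbol to RefSeq sequences with the same coordinates.

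The named genes are the members, genes with their seed, microRNA neighbours within 10 kb, the miR-148/miR-152 list, the 3 most abundant and all 2-fold genes of the other lists, and the 3 genes most like Mir301 by each measure; other genes named were added after their values were seen. Members and lists were chosen with earlier results of these data known.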

Additional observations from a re-analysis of the deposited data

How the results depend on the processing

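No paired analysis was possible because there is 1 group. The direction of all 4 ratios held under counts without regard to strand, TMM factors, DESeq2 size factors, totals without the 10 most abundant genes, all reads of the library, and scaling by the median ratio, the last added after seeing the data. The log2 ratio ranged from 4.64 to 4.92 for Mir301, and only for Mir130a and Mir130b did it leave the counting interval: Mir130a reached 0.80 without the 10 most abundant genes and 1.08, past 2-fold, with all reads, and Mir130b reached 0.38 with all reads. Scaling to all reads moved the median ratio of detected genes to 0.25 on the log2 scale, so these shifts are those of all genes. Mean levels followed the denominator: without the 10 most abundant genes Mir130a was at 2498 CPM and Mir130b at 247 CPM, and scaled to all reads they were at 311 and 30.0 CPM. Detected genes at least 2-fold apart numbered 29 at a minimum of 100 reads in each library and 149 at a minimum of 1; those higher in replicate 1 numbered 13 and 63, with 39 for scaling to all reads, where 20 were lower, and 32 among genes of 10 to 100 reads in total, a range chosen after seeing the data. Without either replicate in turn, levels ranged from 762 to 1405 CPM for Mir130a, 23.4 to 618 for Mir301, 99.7 to 113 for Mir130b and 0.225 to 6.90 for Mir301b, and family shares from 65.6 to 86.1%, 2.65 to 28.8%, 5.27 to 11.3% and 0.0254 to 0.322%. Adding all genes with the same seed left every share as it was, since they had no reads. The log2 ratio of the summed neuronal markers turned to 0.82 without Mir132, a choice made after seeing the data. Depth limits Mir301b most, since its ratio rests on 1 read in replicate 2.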
